A study of Mus musculus with 30 samples.

Results

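EPOP (C17orf96) was mapped by chromatin immunoprecipitation and sequencing (ChIP-seq) in E14Tg2A cells, a mouse embryonic stem cell line, upon EPOP knock-down and without it. All peaks of 4 lists were taken, 2 upon EPOP knock-down and 2 without, which came to 18545 of the 240359 peaks in the 20 ChIP lists of the series. Cells of all groups grew without feeders in 20% serum with LIF, and chromatin for these ChIPs was fixed with 1% formaldehyde. EPOP was depleted with a short hairpin RNA delivered by lentivirus and selected with puromycin, so some EPOP may be left, and how much was left was not measured in these lists. The header of the replicate 2 list without knock-down reads sh_ct, which the labels do not explain, and that of replicate 1 without knock-down names no hairpin. The antibody was home-made against amino acids 1 to 240 of EPOP, from lot 1 in both lists of replicate 1 and lot 2 in both lists of replicate 2. Whether the replicates came from separate cultures is not labelled, so p-values measure only how far these lists differ, which may be technical. For knock-down replicate 1 the title, the antibody and the list header name EPOP while the description names IgG, and the description of the IgG sample names C17orf96. Results are therefore given for each knock-down list apart, and replicate 2 is also given on its own.

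EPOP binds Polycomb repressive complex 2 (PRC2), which methylates histone H3 at lysine 27 and keeps developmental genes silent in embryonic stem cells. It also binds Elongin B, a subunit of the elongin complex that takes part in transcription elongation and in ubiquitin ligases. In embryonic stem cells many PRC2 sites are CpG-rich promoters that carry H3K27me3 together with H3K4me3, a mark of promoters. Suz12 is a core subunit of PRC2, and Jarid2 is an accessory subunit that helps to bring PRC2 to chromatin.

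EPOP peaks were far fewer upon EPOP knock-down in both replicates. The lists held 108 peaks in knock-down replicate 1 and 818 in knock-down replicate 2, against 11072 in replicate 1 and 6547 in replicate 2 without knock-down. They covered 0.113 and 0.784 Mb of the genome upon knock-down, against 21.7 and 12.9 Mb without. The mean number of peaks was 463 ± 502 upon knock-down and 8809.5 ± 3199.7 without (SD, n = 2 each). Both knock-down lists lay below both other lists, and the groups did not overlap in peak number or in covered length. Within replicate 1 the knock-down list was 103-fold shorter, and within replicate 2 it was 8.00-fold shorter. In covered length the knock-down was lower by 192-fold in replicate 1 and by 16.4-fold in replicate 2. The ratio of means was 0.0526 for peak number and 0.0259 for covered length. Without knock-down replicate 1 these ratios were 0.0929 and 0.0453, and without knock-down replicate 2 they were 0.0123 and 0.00654. A two-sided exact permutation test over the lists gave p = 0.333 for either measure, the smallest p that 2 lists against 2 allow. Cut to the 108 highest scores of each list, the ratio of covered length was 0.202. With a higher score bound, set at the median score over the lists without knock-down, the ratios were 0.0084 for peak number and 0.00647 for covered length. The same bound, 150.82, was applied to all EPOP lists, and 90% of knock-down peaks scored below 225 in replicate 1 and 127 in replicate 2. Scores of separate lists are not on a common scale, so these 2 ratios are no check of the loss. Read depth is unknown for every list.

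The peaks that were called upon knock-down were also smaller. Median peak width was 760.5 and 828.5 bp upon knock-down, against 1669 and 1579 bp without. The deposited score, the authors' own value for each peak, starts at 50 in all 20 lists. Scores under 100 were held by 73.1% and 81.4% of the peaks upon knock-down, against 41.1% and 28.5% of the peaks without. Since scores of separate lists are not on a common scale, this describes how close each list lay to its own lower bound.

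**Figure D1:**
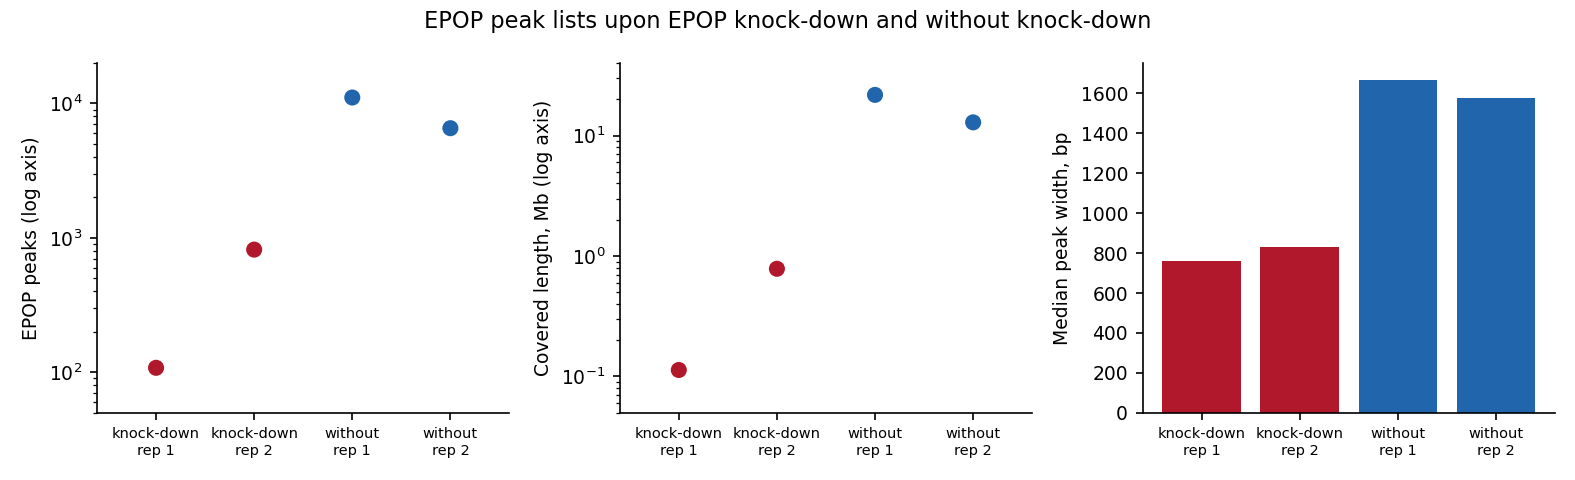
Number of EPOP peaks (log axis), covered length in Mb (log axis) and median peak width in bp in the 2 lists upon EPOP knock-down (red) and the 2 lists without (blue), each point or bar being 1 list. Both knock-down lists lie below both others in all 3 panels, with 108 and 818 peaks against 11072 and 6547.

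EPOP regions were next followed one by one. A region was a stretch of merged peaks seen in each of the lists without knock-down, which had to overlap there by at least 1 bp, and it was called kept where a knock-down peak overlapped it by at least 1 bp. Of the 5720 EPOP regions, 48 kept a peak in knock-down replicate 1, which is 0.839% (Wilson 95% interval 0.634 to 1.11). In knock-down replicate 2, 508 kept a peak, which is 8.88% (8.17 to 9.65). These intervals cover the counting of regions only. The mean over the 2 knock-down lists was 4.86% ± 5.69 (SD, n = 2). With regions taken from replicate 1 without knock-down alone, leaving out replicate 2 without knock-down, it was 2.55%, and it was 8.88% without knock-down replicate 1 and 0.839% without knock-down replicate 2. With the higher score bound, the same for all EPOP lists and so no check of the loss, the mean share was 0.56%. With lists of equal length it was 17.6%, and with regions of either list without knock-down 2.70%. Both knock-down lists were without a peak at 5191 regions, 90.8% of the total.

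Replicate 2 alone, whose labels do not conflict, was also read over its own peaks without knock-down. The knock-down list is the same as for the 8.88% above, so this is no separate check. Of its 6547 peaks without knock-down, 544 (8.31%, 7.66 to 9.0) overlapped a peak of its own knock-down list, while 6021 (92.0%, 91.3 to 92.6) overlapped a peak of replicate 1 without knock-down. These shares are bounded by the lengths of the lists searched, 818 and 11072 peaks. For replicate 1, 49 of 11072 peaks (0.443%) overlapped a peak of their own knock-down list, and 53.2% overlapped a peak of replicate 2 without knock-down.

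The regions still found in the 2 knock-down lists overlapped each other in part. Of the 48 regions kept in knock-down replicate 1, 27 were also kept in replicate 2, which is 56.3% (42.3 to 69.3) of the replicate 1 set and 5.31% (3.68 to 7.62) of the replicate 2 set. Among the 5672 regions missing in replicate 1, 8.48% were kept in replicate 2. The 27 regions kept in both lists were wide, with a median of 5062 bp against 2205.5 bp over all EPOP regions.

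The regions that kept a peak were those with the highest scores before knock-down. When the 5720 regions were put into deciles by their score in replicate 2 without knock-down, the top decile kept 287 of 572 regions (50.2%, 46.1 to 54.3) in knock-down replicate 2. The next decile kept 131 (22.9%, 19.6 to 26.5), the eighth 47 (8.22%) and the seventh 25 (4.37%). The lower 5 deciles together kept 10 of 2860 regions (0.35%). Knock-down replicate 1 showed the same order at a lower level, with 31 of 572 regions (5.42%, 3.84 to 7.59) in the top decile, 9 (1.57%) in the next and 2 of 2860 (0.0699%) in the lower 5. The upper 2 deciles thus held 82.3% of the regions kept in replicate 2 and 83.3% of those kept in replicate 1. Even among the 100 regions with the highest scores, 27 had no peak in knock-down replicate 2 and 90 had none in replicate 1.

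Recovery between the lists without knock-down was set beside this loss. The lists searched differ in length, with 818 and 108 peaks upon knock-down against 11072 in replicate 1 without. Length bounds the shares, most of all for the 108 peaks of knock-down replicate 1. With lists of equal length, 26.8% of 71 regions were kept in knock-down replicate 2 and 8.45% in replicate 1. In the upper 4 deciles of replicate 2 peaks, replicate 1 without knock-down recovered between 99.7% and 100% of the peaks. Knock-down replicate 2 recovered 47.6% (43.8 to 51.4) of the top decile, 19.2% of the ninth, 6.72% of the eighth and 3.06% of the seventh. In the lowest decile the share was 1.22% in knock-down replicate 2 and 64.7% in replicate 1 without knock-down. Peaks of high score were thus absent upon knock-down while the other list without knock-down held them.

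**Figure D2:**
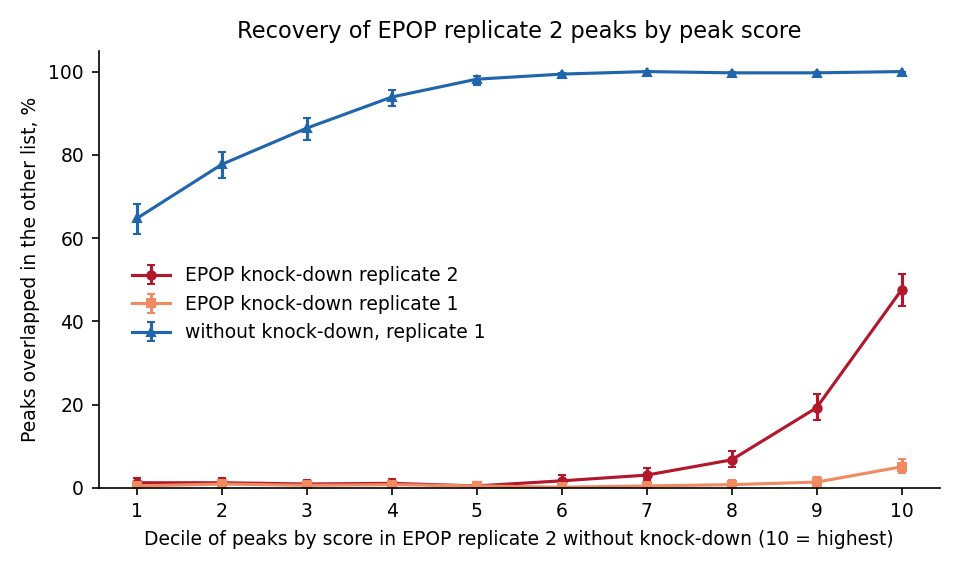
Share of the replicate 2 EPOP peaks without knock-down that were also found in knock-down replicate 2 (red circles), knock-down replicate 1 (orange squares) and replicate 1 without knock-down (blue triangles), by decile of peak score, with Wilson 95% intervals. The knock-down lists reach 47.6% and 5.05% in the top decile, where the list without knock-down reaches 100%. The lists searched hold 818, 108 and 11072 peaks in this order, which bounds the shares.

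Width went with being kept as score did. Of the 49 EPOP regions of 10 kb or more, 35 (71.4%, 57.6 to 82.2) kept a peak in knock-down replicate 2, and of the 327 regions of 5 to 10 kb 115 did (35.2%, 30.2 to 40.5). The share was 11% among 3000 regions of 2 to 5 kb, 1.25% among 2162 of 1 to 2 kb and 0.549% among 182 under 1 kb. Knock-down replicate 1 kept 6 of the 49 widest regions (12.2%) and 15 of the 327 next (4.59%). Wide regions also had high scores, with a median of 2466.5 in replicate 2 without knock-down at 10 kb or more against 76.0 under 1 kb, and width and score were not told apart.

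The peaks called upon knock-down at kept regions were narrow and mostly near the middle. All 48 regions kept in knock-down replicate 1 and all 508 kept in replicate 2 held narrower peaks upon knock-down than the mean of the lists without. Summed peak width was a median of 783.5 bp in knock-down replicate 1 against 4198.75 bp without, and 1004.5 bp in knock-down replicate 2 against 3419.5 bp without. The median log2 width ratio, knock-down over mean without, was −2.52 in replicate 1, with middle 50% from −2.87 to −1.65, and −1.75 in replicate 2, from −2.26 to −1.26. Against each list's own replicate the medians were −2.48 and −1.74. At the 508 regions kept in replicate 2, the same ratio between the 2 lists without knock-down (replicate 2 over replicate 1) had a median of −0.015. Since a kept region is one where a peak was called, these widths describe the peaks that stayed and are not tested. Many of these peaks scored near the lower bound of 50, with medians of 60.6 in replicate 1 and 72.3 in replicate 2. With depth unknown, the widths do not show how much EPOP was left outside the called peaks.

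Most kept regions held a single knock-down peak, 48 of 48 in replicate 1 and 458 of 508 in replicate 2, while 43 held 2 peaks and 7 held 3 or more in replicate 2. These peaks lay inside the outline of the region in 47 of 48 cases in replicate 1 and in 565 of 567 in replicate 2. The centre of the peak was a median of 17.9% of the half-width away from the centre of the region in replicate 1 and 22.6% in replicate 2. Missing regions had few peaks close by: a knock-down peak lay within 1000 bp of 2 of 5672 missing regions in replicate 1 and of 5 of 5212 in replicate 2.

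**Figure D3:**
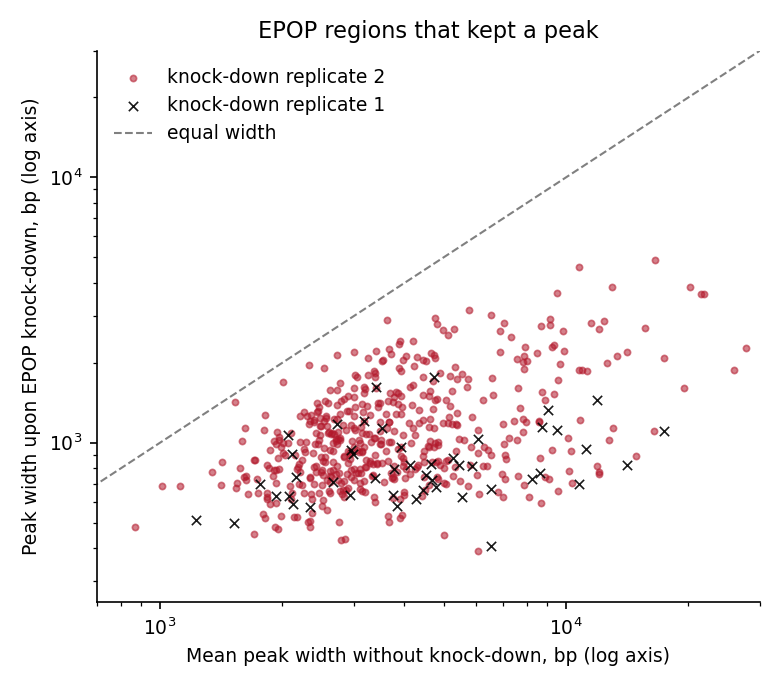
Summed peak width upon EPOP knock-down against mean summed width without knock-down (both in bp, log axes) for the 508 EPOP regions kept in knock-down replicate 2 (red circles) and the 48 kept in replicate 1 (black crosses). Every point lies below the dashed line of equal width, with medians of 1004.5 bp against 3419.5 bp in replicate 2.

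Kept regions were compared by the other proteins found there without knock-down. EPOP regions that overlapped an EloB region, a stretch where EloB peaks of both lists without knock-down overlapped each other, kept a peak in 341 of 761 cases (44.8%, 41.3 to 48.4) in knock-down replicate 2 and in 35 (4.6%, 3.33 to 6.33) in replicate 1. Regions with Jarid2 and without EloB kept a peak in 130 of 1573 cases (8.26%, 7.00 to 9.73) in replicate 2 and in 10 (0.636%) in replicate 1. Regions with Suz12 alone of the 3 kept a peak in 35 of 2803 (1.25%) in replicate 2 and in 3 in replicate 1. Of 583 regions with none of the 3, 2 kept a peak in replicate 2 (0.343%), beside the 8.88% over all EPOP regions. The classes ran along the scores, with median scores in replicate 2 of 1500.5, 525.9, 157.9 and 73.3 in this order.

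Within each of the upper 2 deciles of score the EloB class still kept more regions than the Jarid2 class in knock-down replicate 2. In the top decile the share was 54.4% (50.0 to 58.8) of 487 regions with EloB and 25.0% (17 to 35.2) of 84 with Jarid2 and without EloB. In the ninth decile it was 33.5% (27.3 to 40.3) of 200 and 16.6% (13.1 to 20.9) of 349. Median scores within these deciles still differed, at 1949.4 with EloB against 1461.6 without in the top decile and 1004.8 against 919.5 in the ninth, so the part of score in this was not tested. In knock-down replicate 1 the same shares were 5.75% (4.01 to 8.18) against 3.57% (1.22 to 9.98) in the top decile, with intervals that overlap. In the eighth decile of replicate 2 the intervals also overlapped, at 12.1% (5.97 to 22.9) of 58 against 8.48% (6.13 to 11.6) of 401. Regions with Suz12 alone kept 26.1% (12.5 to 46.5) of 23 in the ninth decile of replicate 2, above the Jarid2 class. The order of the classes thus did not hold throughout at like score.

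The knock-down peaks also lay on the EloB part of these regions. At the 341 kept regions with EloB, 92.7% of the bases of the replicate 2 knock-down peaks fell on EloB peaks found without knock-down, while EloB peaks covered 47.9% of the bases of the regions. For Jarid2 at 469 kept regions the values were 98.3% of knock-down peak bases and 72.7% of region bases. Suz12 peaks covered 98.3% of the bases of 506 kept regions, so the position of the knock-down peaks says little there. Where the EloB peaks lie within the regions was not measured, and the match was not tested.

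The other ChIP targets were then read at the same 5720 EPOP regions, to see what remained where EPOP peaks were gone. PRC2 peaks remained at nearly all of them. Suz12 peaks were found at 94.6% of the EPOP regions upon EPOP knock-down, against 93.5% and 92.0% in the lists without. The Suz12 knock-down list lay 1.05 percentage points above the higher of the lists without, about the SD of 1.05 points between those lists, and with 1 knock-down list this was not tested. Of 5116 regions with Suz12 in both lists without knock-down, 49 (0.958%) had none upon knock-down. At the 5191 regions without EPOP in either knock-down list, Suz12 was found at 94.0% upon knock-down, against 92.9% and 91.3%. Suz12 peaks covered 81.8% of the bases of the EPOP regions upon knock-down, against 89.0% and 76.0% without, a value between the lists without knock-down.

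H3K27me3 was found at 83.3% (82.3 to 84.3) of the EPOP regions upon knock-down and at 84.4% (83.4 to 85.3) without, with 1 list each and so no replicate check. It was absent upon knock-down from 404 of 4827 regions that had it without, and present at 343 of the 893 others. With a higher score bound, taken from the lists without knock-down and applied to both conditions, the difference turned to 5.94 percentage points in favour of the knock-down list. That value depends on the scale of scores in each list, and the difference has no stable direction. H3K4me3 was found at 97.4% of the EPOP regions upon knock-down, against 95.9% and 98.3% without, a value between the lists without knock-down.

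Jarid2 was found at 58.5% (57.3 to 59.8) of the EPOP regions upon knock-down and at 40.6% (39.4 to 41.9) without, again with 1 list each. A peak of Jarid2 was present upon knock-down at 1062 of 3396 EPOP regions that had none without (31.3%), and was absent at 37 of 2324 that had one. At the 5191 regions without EPOP in either knock-down list the shares were 54.6% and 35.4%. Jarid2 peaks shared by both lists were wider upon knock-down at 89.3% of 2287 regions, with a median log2 ratio of 0.26. H3K27me3 peaks were also wider, at 70.0% of 4423 regions, with a median of 0.21. For Suz12 and H3K4me3 the medians were −0.097 and −0.0028. Between the 2 lists without knock-down the median was −0.44 for Suz12 and 0.16 for H3K4me3. Jarid2 and H3K27me3 have no such pair, so their widening was not set against the spread between lists. The Jarid2 values were also not set against the length of each Jarid2 list. Whether the lists differ in the same way outside EPOP regions was not tested.

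EloB was the target whose peaks were nearly all absent from the EPOP regions upon EPOP knock-down. EloB peaks were found at 2 and 3 of the 5720 EPOP regions upon EPOP knock-down (0.0350% and 0.0524%), against 934 and 1178 without (16.3% and 20.6%). The difference of the means was −18.4 percentage points, and the 2 conditions did not overlap. The two-sided exact permutation test over the lists gave p = 0.333, the smallest possible. Each EloB list without knock-down had a peak somewhere in 774 EPOP regions, whether or not these peaks overlapped each other, and 769 of them had no EloB peak in either knock-down list. The loss also covered regions where EPOP kept a peak: of the 508 kept in knock-down replicate 2, 344 had a peak in each EloB list without knock-down and 340 of these had none upon knock-down. Where EPOP was missing in both knock-down lists, EloB was lost at 418 of 419 such regions. EloB peaks were thus absent at nearly all regions of either set, so these counts cannot show whether their loss followed that of EPOP. EPOP peaks at kept regions were also narrower upon knock-down. Whether EloB peaks were also fewer outside EPOP regions was not tested. The EloB ChIPs were crosslinked in a different way, and the headers of the knock-down lists carry differing names across targets, so the knock-down cells need not be the same.

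**Figure D4:**
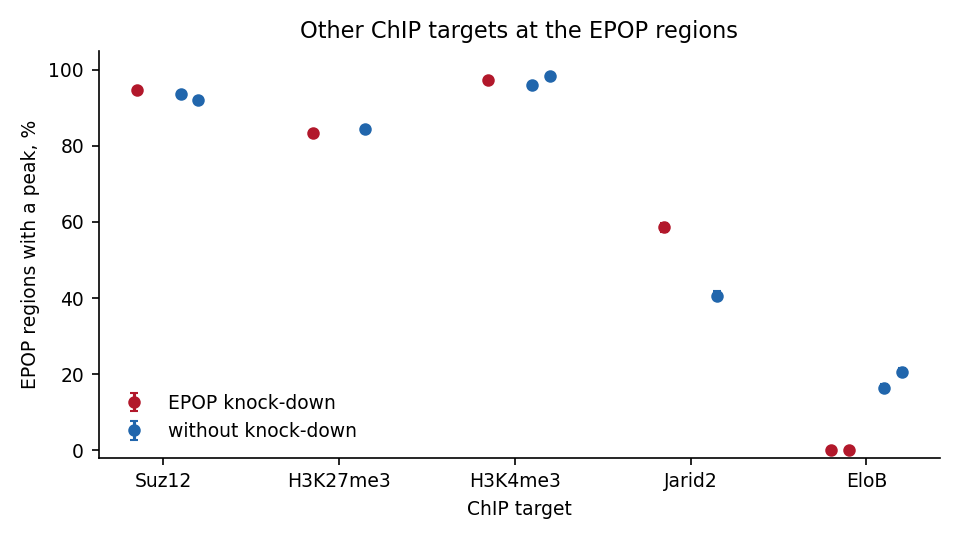
Share of the 5720 EPOP regions with a peak of Suz12, H3K27me3, H3K4me3, Jarid2 or EloB, with EPOP knock-down lists in red left of lists without knock-down in blue, 1 point per list with Wilson 95% intervals. EloB falls to 0.0350% and 0.0524% against 16.3% and 20.6%, while Suz12 stands at 94.6% against 93.5% and 92.0%.

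A part of the knock-down peaks lay where no shared EPOP region was. In knock-down replicate 1, 48 of 108 peaks (44.4%) lay on the shared EPOP regions, 26 on an EPOP peak of 1 list without knock-down alone and 34 on none. In knock-down replicate 2 the numbers were 567 of 818 (69.3%), 34 and 217. Many of the strongest knock-down peaks lay off the shared EPOP regions. Of the 20 highest scores in replicate 1, 16 lay on a peak of 1 list without knock-down, 4 on none and 0 on a shared EPOP region. In replicate 2, 9 of the 20 highest lay on shared EPOP regions, 10 on a peak of 1 list and 1 on none. On shared EPOP regions the highest score was 103 in replicate 1 and 311 in replicate 2, while in the class of 1 list it was 1875 and 3105.

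The peaks of the class of 1 list recurred across targets. They overlapped a peak of EloB upon EPOP knock-down in 22 of 26 cases (84.6%, 66.5 to 93.9) in replicate 1, and in replicate 2 this held for 26 of 34 (76.5%, 60 to 87.6). On shared EPOP regions it held for 0 of 48 peaks in replicate 1, which allows up to 7.41% by the Wilson interval, and for 3 of 567 in replicate 2. Of the 49 stretches with a peak in both EPOP knock-down lists, 22 lay on shared EPOP regions and 27 did not. The 27 had a peak in 23 cases in EPOP replicate 2 without knock-down and in 0 in EPOP replicate 1 without knock-down. They had a peak in a median of 12 of the 16 lists of other targets, among them 11 and 22 in the EloB lists upon EPOP knock-down, 24 and 15 in the H3K4me3 lists without knock-down and 22 in the Jarid2 list without knock-down.

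Many of these stretches lay together. Within chromosome 9, 2999897 to 3038514 (mm9), lay 11 of them, at the start of the chromosome as assembled, and within chromosome 2, 98502265 to 98507849, lay 3. The strongest peak of knock-down replicate 1, also ranked 3 in replicate 2, was at chromosome 17, 39979732 to 39984013, which had a peak in 15 of the 20 lists. One more was at the start of the mitochondrial sequence, where knock-down replicate 2 had its strongest peak. Removing every EPOP peak that overlapped EloB upon EPOP knock-down, a step chosen after the data were seen, left the ratio of peak number at 0.0485 and the mean share of kept regions at 4.83%.

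Knock-down peaks on no EPOP peak had low scores in replicate 2 and less so in replicate 1. Of the 217 in replicate 2, 174 (80.2%) scored under 60, their median width was 496 bp, and 184 had no peak in any of the 16 lists of other targets. H3K4me3 regions were overlapped by 11 of them and Suz12 regions by 0. Of the 34 in replicate 1, 17 scored under 60, the highest score was 531, and 21 had no peak in the other 16 lists. Between the knock-down lists 4 of these peaks were shared, among them chromosome 15, 74915671 to 74917582, where 14 of the 20 lists had a peak, and chromosome 10, 21861924 to 21862908, where 7 did.

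**Figure D5:**
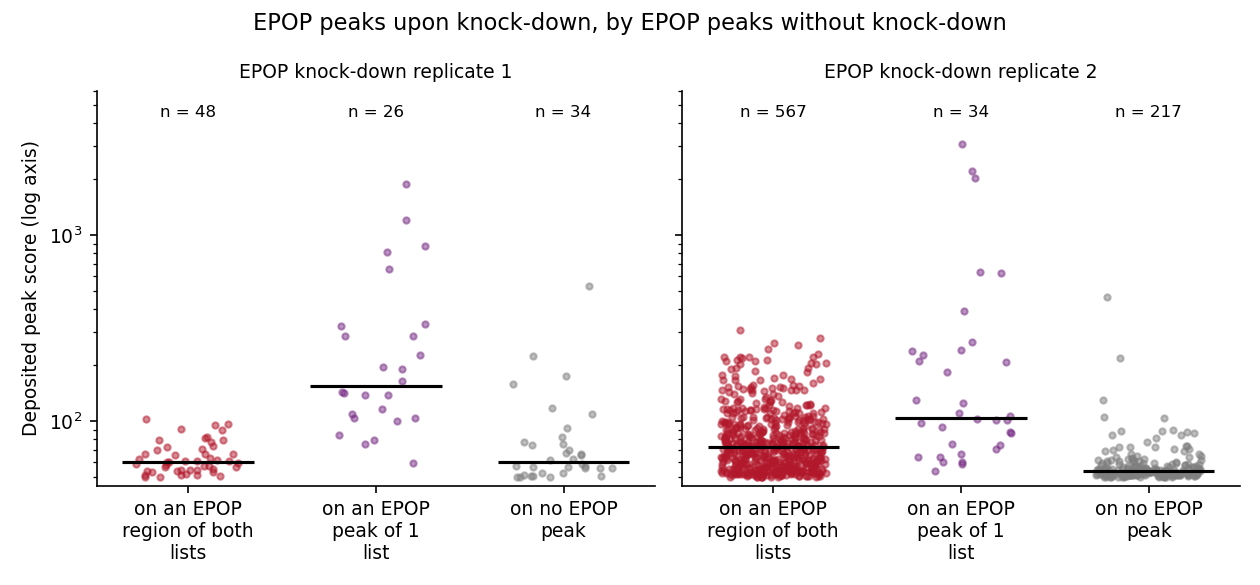
Deposited score (log axis) of each peak of knock-down replicate 1 (left) and knock-down replicate 2 (right), split by whether it overlapped an EPOP region of both lists without knock-down, a peak of 1 such list, or none, with bars at the medians. The highest scores, 1875 and 3105, lie in the middle class of 26 and 34 peaks.

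Single regions show the range of what stayed. No gene annotation of build mm9 was used here, so regions are given by position without gene names. The region at chromosome 5, 33770935 to 33781440, kept a peak in both knock-down lists. Its peaks were 1118 bp wide in knock-down replicate 1 and 3679 bp in replicate 2, against 8551 and 10437 bp without knock-down. It carried Suz12, Jarid2, H3K27me3, H3K4me3 and EloB without knock-down and all of them but EloB upon knock-down. The widest of the 5 named regions kept in both was chromosome 4, 139375374 to 139394085, with 1106 and 2089 bp upon knock-down, against 17494 and 17306 bp without. Chromosome 1, 74993834 to 74999498, had 824 and 1030 bp upon knock-down, against 5460 and 5454 bp without.

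Regions of equally high score kept nothing. At chromosome 4, 48055325 to 48065953, neither knock-down list had a peak, while the lists without knock-down had 9212 and 9855 bp of peak there and the region shared the first rank in replicate 1 by score. At chromosome 14, 67847483 to 67857882, which ranked 2 in replicate 2 without knock-down, neither knock-down list had a peak either, against 10085 and 9616 bp without. Next to these stands chromosome 14, 22800426 to 22812064, ranked first in replicate 2 without knock-down, with no peak in knock-down replicate 1 and 1868 bp in replicate 2, against 11639 and 10827 bp without.

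The knock-down lists also split between themselves. Chromosome 16, 91218757 to 91230595, had a peak of 944 bp in knock-down replicate 1 and none in replicate 2, against 11031 and 11329 bp without. Chromosome 17, 30022663 to 30027602, had none in knock-down replicate 1 and 2082 bp in replicate 2, against 4679 and 4809 bp without. The widest region, chromosome 11, 96139917 to 96168744, had no peak in knock-down replicate 1 and 2283 bp in replicate 2, against 26903 and 28722 bp without. No H3K27me3 peak was called there in the knock-down list of that mark, which has no replicate. Of 571 top-decile regions with an H3K27me3 peak without knock-down, 9 had none upon it. Each region named by rule as kept or as missing, printed here or not, carried Suz12 and Jarid2 upon knock-down, and none of them carried EloB. These regions were named for high scores. Over the top decile by score in replicate 2, Suz12 and Jarid2 were each found at 572 of 572 regions upon knock-down. EloB was found there at 2 and 3 of 572 in its knock-down lists.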

How the data were processed

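Peak lists of 20 ChIP samples in build mm9 were used, among them 2 upon EloB knock-down that served only to count where a peak recurs. IgG and the 9 RNA samples were not analysed here. The submitters' processing notes name Bowtie, TopHat, Cufflinks and mm9 with neither a role nor a version, and peaks in the deposited lists have MACS in their names. Settings of peak calling are not given in the sources used here. Each peak has a score deposited by the authors on a scale that is not defined, which ranked and described peaks within a list. Only the higher score bound was used across lists: it was set once per target and applied to both conditions, so its results depend on the scale of scores. Positions are counted from 1.

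Groups and replicate numbers came from the sample titles. Overlap meant at least 1 bp. Regions of other targets were peaks found in both lists without knock-down, or all peaks where there was 1 list. Shares per list used that list alone. Width was the summed width of all overlapping peaks. Tied scores share the best rank, and 75 EPOP regions tie at a score of 3100 in replicate 2, so within that tie wider regions were named first. Regions were named by rule: per knock-down list the 5 kept, the 5 missing and the 5 new ones with the highest score, and the 5 kept in both, without chromosome 18, the mitochondrial and unplaced sequence. Of these some are printed. The members, lists and rules were chosen with earlier results of these data known. Same-numbered EPOP lists share an antibody lot. The alternatives tried were a higher score bound (at or above the median score of the target's lists without knock-down), an overlap of 0.5 of the shorter peak, a distance of 1000 bp, regions of either list, autosomes and X alone, lists of equal length (the 108 highest scores), leaving out single lists, and comparing lists of the same replicate number.

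Depth is unknown for every list, so a missing peak does not measure the signal left. Scripts ran in Python 3.11.15 with SciPy 1.17.1 and NumPy 2.4.6, figures were drawn with Matplotlib 3.10.9, and bedtools 2.31.1 served as a check. The overlap code gave the same counts as bedtools in 400 of 400 pairs of lists. In a simulation, centred peaks were placed in randomly drawn members of the 5720 EPOP regions. The kept share differed from the set rate of drawing by 0.126 percentage points, and the log2 width ratio from its set value by 0.0021. This checks the code only, not how well these lists detect kept regions.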

Additional observations from a re-analysis of the deposited data

How the results depend on the processing

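Of 83 recomputed values, 13 moved by more than the spread between replicates or the counting interval. The other 70 stayed within it or, for the tested ratios of peak number and covered length, kept their direction, although their size could move far and no such test can pass 0.05 with these lists. The H3K4me3 difference, 0.31 points, has no stable direction: it was −0.89 without H3K4me3 replicate 1 and 0 without EPOP replicate 1. With the higher score bound, peak number and covered length had ratios of 0.0084 and 0.00647, 0.56% of regions were kept, kept regions had a width ratio of −1.32, replicate 2 alone kept 1.21%, and the differences at EPOP regions were 23.0 points for Jarid2, 5.94 for H3K27me3 and −1.51 for H3K4me3. With lists of equal length, the ratio of covered length was 0.202, 17.6% of regions were kept (8.45% in knock-down replicate 1 and 26.8% in replicate 2, of 71 regions), and 25.9% in replicate 2 alone. With regions of either list, the top decile kept 36.7%, and the differences were 4.92 points for Suz12, 9.52 for Jarid2 and −9.25 for EloB. With peaks up to 1000 bp apart the top decile kept 46.1%. The cause was not tested for these.

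Leaving out each EPOP list in turn, the ratio of peak number ranged from 0.0123 to 0.0929, that of covered length from 0.00654 to 0.0453, the kept share from 0.839% to 8.88% and the width ratio from −2.52 to −1.56, the last without EPOP replicate 1. At EPOP regions the differences ranged from 1.05 to 2.53 points for Suz12, −0.89 to 1.52 for H3K4me3 and −20.6 to −16.3 for EloB, and were 16.8 for Jarid2 and −0.46 for H3K27me3 without EPOP replicate 1. The replicate block, which compares lists of the same number and antibody lot, gave 0.0349 for peak number, 0.0178 for covered length, 4.38% kept and a width ratio of −1.97. Its smallest exact p is 0.5, and it changed no direction. The named regions kept or missing stayed so under both overlap alternatives, added after the data were seen. Unknown depth limits every value here.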

Other observations

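EPOP regions on chromosome X kept a peak in knock-down replicate 2 in 1 of 95 cases (1.05%, Wilson 95% interval 0.186 to 5.72), against 9.01% (8.29 to 9.79) of the 5625 on autosomes. Over the 19 autosomes the share ranged from 5.00% on chromosome 17 to 13.0% on chromosome 19. Regions on X were narrower, with a median of 1678 bp against 2213 bp on autosomes, and their median score in replicate 2 without knock-down was 231.7 against 252.6. The upper 2 deciles of score held 8 of them, of which 1 was kept, against 417 of 1136 on autosomes. With so few strong regions on X, the part of score in this was not tested.

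The order of scores among kept regions was loose. Spearman's rho between scores in knock-down replicate 2 and in replicate 2 without knock-down was 0.36 over the 508 kept regions. Between the 2 lists without knock-down it was 0.88 over the same regions. All points of a comparison share 1 library on each side, so these values describe these lists.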
